A study of Mus musculus with 2 samples.

Results

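T cells of subcutaneous LLC tumors were examined, a set of 159 barcodes among the 40638 in the files, with 79 from sGC Ctr and 80 from sGC ∆PC tumors. A barcode was counted as a T cell when it held at least 1000 UMIs (unique molecular identifiers, 1 per captured transcript), less than 10% of them from mitochondrial genes, at least 3 UMIs of *Cd3d*, *Cd3e*, *Cd3g*, *Trac* and *Trbc2* together, at most 2 of the macrophage genes *C1qa*, *C1qb* and *C1qc*, and at most 2 of the cancer cell genes *Rhox5*, *Krt8*, *Krt18* and *Hmga2*. These expression values chose the cells, so the high levels of CD3 genes given below describe the choice.

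LLC is a mouse lung carcinoma line, grown here under the skin of C57BL/6 mice. The sGC Ctr mice carried *Gucy1b1* flox/flox and the sGC ∆PC mice *Cspg4*-CreERT2 with *Gucy1b1* flox/flox, where *Gucy1b1* encodes a subunit of soluble guanylate cyclase, a receptor of nitric oxide, and *Cspg4* is a gene of pericytes and of some other mesenchymal and glial cells. Both groups carried the floxed alleles and both received tamoxifen, 5 doses from the age of 4 weeks, with tumor cells injected at 8 weeks and tumors taken 2 weeks later. Each condition was 1 droplet library of 3′ transcript ends, made from the pooled cells of 3 tumors, so condition and library cannot be told apart and no test between conditions was possible. Intervals below are exact 95% intervals that cover counting error only. The sGC Ctr library held 15007 barcodes with 487859656 UMIs, and the sGC ∆PC library 25631 barcodes with 436352742 UMIs, of which 12281 and 21082 passed the limits on UMIs and mitochondrial share. The files held 131 barcodes in common, and no T-cell barcode was a T cell in both.

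T cells recognize peptides held by MHC molecules through a receptor of alpha and beta chains, which signals through the CD3 proteins. CD8 T cells kill target cells with granzymes and perforin, CD4 T cells help other immune cells, and regulatory T cells, which need the transcription factor Foxp3, restrain both. γδ T cells use a receptor of gamma and delta chains and are found mainly in barrier tissues, and tumors of many kinds hold all of these classes.

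The T cells were small beside the rest of each library. Their median depth was 3016 UMIs (sGC Ctr) and 3549 (sGC ∆PC), with medians of 1299 and 1574 genes, while the median over all kept barcodes was 35606 and 9418 UMIs. Summed over cells, the T-cell libraries held 291026 and 361070 UMIs. The CD3 genes of the rule had a median of 10 UMIs per cell in sGC Ctr (range 3 to 46) and 11 in sGC ∆PC (3 to 79). At the threshold, 3 and 9 members had just 3 CD3 UMIs, and 4 and 13 barcodes that met the other limits had 2. The limits on other RNA removed more in the sGC ∆PC library: of 116 sGC Ctr barcodes with 3 or more CD3 UMIs, 37 (31.9%) were left out for C1q or cancer cell UMIs, against 87 of 167 (52.1%). Among the members, 12 and 17 held 2 C1q UMIs and 11 and 26 held 2 cancer cell UMIs. Just outside these limits were 1 and 2 barcodes with 3 C1q UMIs and 7 and 6 with 3 cancer cell UMIs.

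The label was checked against genes that the rule did not use. *Lck*, the kinase that starts T-cell receptor signaling, had 106 UMIs in 52 of 79 cells and 123 in 56 of 80. With every cell thinned to 1000 UMIs, *Lck* was seen in 31.6% and 18.8% of T cells but in none of the granulocyte barcodes (at least 50 UMIs of *S100a8* and *S100a9*, median depth 2148 and 2516 UMIs) and in 0.123% and 0.245% of macrophage barcodes (at least 10 C1q UMIs, 10616 and 6022 UMIs). *Ms4a4b*, a membrane gene of T and natural killer (NK) cells, was seen in 46.8% and 47.5% of T cells and in 0.368% to 0.463% of these other barcodes. *Tyrobp*, an adaptor gene of myeloid and NK cells, ran the other way, at 10.1% and 3.75% of T cells and 88.2% and 79.6% of granulocyte barcodes. Outside the rule, genes that stood highest over the remaining kept barcodes in both libraries included *Gzmb*, *Tcrg-C1*, *Cd6*, *Xcl1*, *Foxp3*, *Icos*, *Gimap7*, *Nkg7* and *Cxcr6*. *Nkg7*, a cytotoxic granule gene, stood at 811 and 709 CPM (UMIs per 1000000) in T cells against 0.363 and 0.982 CPM in the other barcodes. These genes do not set T cells apart from NK cells. In NK-type barcodes (at least 2 UMIs of *Ncr1* and *Klrb1c* and at most 2 CD3 UMIs, numbering 6 and 7) *Nkg7* stood at 1314 and 1234 CPM, and after thinning *Lck* was seen in 3 of 6 and 1 of 7 and *Ms4a4b* in 4 of 6 and 3 of 7. *Cd4*, *Cd8a*, *Cd8b1* and *Foxp3*, which the rule did not use, had 0 UMIs in these 6 and 7 barcodes. The 19 and 29 T cells with no subset gene, described below, also held none of them, so these genes do not set those cells apart from NK cells.

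The target gene of the Cre was not seen in T cells. *Gucy1b1* had 0 UMIs in both T-cell sets, which allows up to 10.3 CPM in sGC Ctr and 8.31 CPM in sGC ∆PC when 3 UMIs are taken as the limit of a count of 0, and over all kept barcodes it had 77 UMIs in 36 barcodes in sGC Ctr and 39 UMIs in 32 in sGC ∆PC. *Cspg4*, whose locus drives the Cre, also had 0 UMIs in T cells of both libraries.

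The beta chain of the T-cell receptor ends in a constant region encoded by either of 2 neighbouring genes, *Trbc1* and *Trbc2*, and *Trbc1* was lower in sGC ∆PC T cells while *Trbc2*, a gene of the rule that chose the cells, was not. Both genes lie on the plus strand of chromosome 6 in GRCm38, at chr6:41538218-41539881 and chr6:41546730-41548352. Their coding sequences of 518 bases have 95.6% identity and differ at 23 bases. Of these, 22 lie in bases 376 to 518, the coding stretch nearest to the 3′ end that the assay reads. This stretch is shown because it holds most of the coding bases that differ, with capitals at those bases (GENCODE annotation of GRCm38).
Trbc1: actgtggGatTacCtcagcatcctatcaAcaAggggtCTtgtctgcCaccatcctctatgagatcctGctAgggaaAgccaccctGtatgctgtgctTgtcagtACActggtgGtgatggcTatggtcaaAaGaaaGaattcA
Trbc2: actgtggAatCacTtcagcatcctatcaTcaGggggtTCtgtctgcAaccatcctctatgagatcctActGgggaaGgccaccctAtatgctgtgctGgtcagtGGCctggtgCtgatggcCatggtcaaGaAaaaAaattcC
Bases 1 to 375 differ at 1 base, and the noncoding 3′ ends of 219 and 174 bases in the annotation were not compared. How many reads could fall to either gene was not tested.

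*Trbc1* had 195 UMIs in 37 of 79 sGC Ctr T cells and 105 in 26 of 80 sGC ∆PC T cells, or 670 and 291 CPM. The log2 ratio, sGC ∆PC over sGC Ctr as everywhere below, was -1.20 (interval -1.56 to -0.85), and -1.39 without the cell that held most *Trbc1* UMIs in each library. At a mitochondrial limit of 5% it was -0.71. *Trbc2* had 307 and 418 UMIs in 70 and 74 cells, a log2 ratio of 0.13 (-0.08 to 0.35). *Trbc1* was also seen in 5 of 6 and 7 of 7 NK-type barcodes, at 726 and 844 CPM. By cell, 7 sGC Ctr cells held UMIs of *Trbc1* only, 40 of *Trbc2* only and 30 of both, and in sGC ∆PC these were 3, 51 and 23, counts that the choice of cells by *Trbc2* shapes. In the subsets defined below, *Trbc1* had 92 against 54 UMIs in CD8 cells, 24 against 9 in Foxp3 cells, 30 against 12 in γδ cells and 46 against 14 in cells with no subset gene. CD4 cells ran the other way, with 3 against 16 UMIs (176 and 284 CPM, 0.69, -1.11 to 3.11), but 14 of the 16 were in 1 cell. The other receptor genes of the rule had these values, which the choice of cells also shapes: *Cd3d* had 255 and 279 UMIs (log2 ratio -0.18, -0.43 to 0.07), *Cd3e* 108 and 129 (-0.05, -0.43 to 0.33), *Cd3g* 164 and 186 (-0.13, -0.44 to 0.18) and *Trac* 138 and 148 (-0.21, -0.55 to 0.13).

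Variable segments were rarely captured. Beta V segments gave 7 UMIs in 7 sGC Ctr cells, over 6 of the 35 genes listed, and 11 UMIs in 10 sGC ∆PC cells, over 7 genes. No cell held more than 1 beta V gene, and the most frequent, *Trbv2*, *Trbv15* and *Trbv20*, each had 3 UMIs over both libraries. Alpha V segments gave 4 UMIs in 4 cells and 14 in 11 cells, and no J segment had a UMI. The depth does not allow a view of clones.

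T cells were a smaller share of the sGC ∆PC library. They made up 0.643% (0.510 to 0.801) of kept sGC Ctr barcodes and 0.379% (0.301 to 0.472) of kept sGC ∆PC barcodes, a log2 ratio of -0.76 (-1.23 to -0.29). With no limit on C1q and cancer cell UMIs the shares were 0.945% (0.781 to 1.13) and 0.792% (0.677 to 0.921), a log2 ratio of -0.25 (-0.60 to 0.10). Over barcodes that met both of these limits, T cells were 4.45% (3.54 to 5.51) and 2.86% (2.28 to 3.55). Granulocyte barcodes were also a smaller share, 2.00% and 1.02%, as were macrophage barcodes, 13.3% and 9.66%. The kept sGC Ctr barcodes were the deeper ones, and the part of depth in these shares was not tested.

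**Figure D1:**
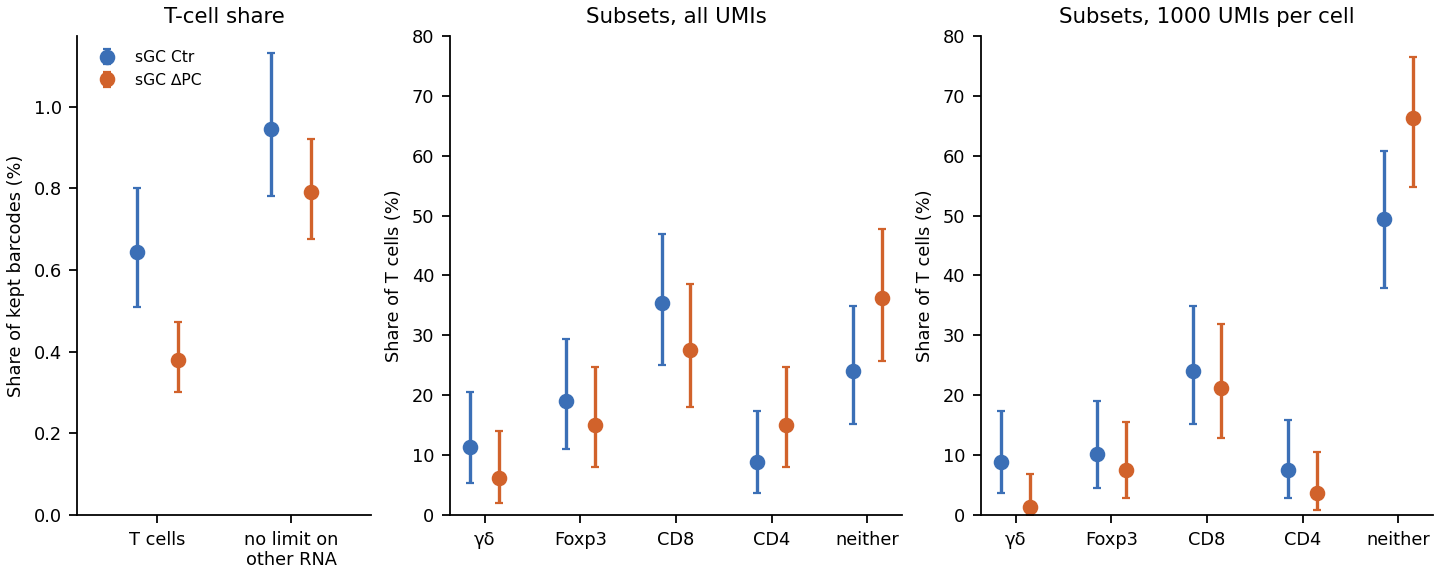
Shares of T cells among kept barcodes (left, percent) and of T-cell subsets among T cells (middle with all UMIs, right with each cell thinned to 1000 UMIs, percent), for sGC Ctr (blue) and sGC ∆PC (orange). Points are shares and bars exact binomial 95% intervals; the intervals of the 2 libraries overlap for all 5 subsets in both panels.

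T cells were sorted into subsets by UMIs of defining genes, in the order γδ (*Trdc*, the delta constant gene), Foxp3, CD8 (*Cd8a* or *Cd8b1* without *Cd4*) and CD4 (*Cd4* without *Cd8a* or *Cd8b1*). CD8 cells were the most frequent, with 28 of 79 sGC Ctr cells (35.4%, 25.0 to 47.0) and 22 of 80 sGC ∆PC cells (27.5%, 18.1 to 38.6). Foxp3 cells followed with 15 (19.0%, 11.0 to 29.4) and 12 (15.0%, 8.00 to 24.7). γδ cells were 9 (11.4%, 5.34 to 20.5) and 5 (6.25%, 2.06 to 14.0), and CD4 cells without *Foxp3* were 7 (8.86%, 3.64 to 17.4) and 12 (15.0%, 8.00 to 24.7). A further 19 (24.1%) and 29 (36.3%) held none of these genes, and 1 sGC Ctr cell held both *Cd4* and CD8 UMIs. All 5 differences in share were within counting error, as the interval of each log2 ratio held 0. Each class rests on a few UMIs per cell, and the γδ class on *Trdc* alone, so a γδ cell with no *Trdc* UMI falls elsewhere. After thinning to 1000 UMIs, 39 and 53 cells had no subset gene, and 19 and 17 CD8, 8 and 6 Foxp3, 7 and 1 γδ and 6 and 3 CD4 cells were left.

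**Figure D2:**
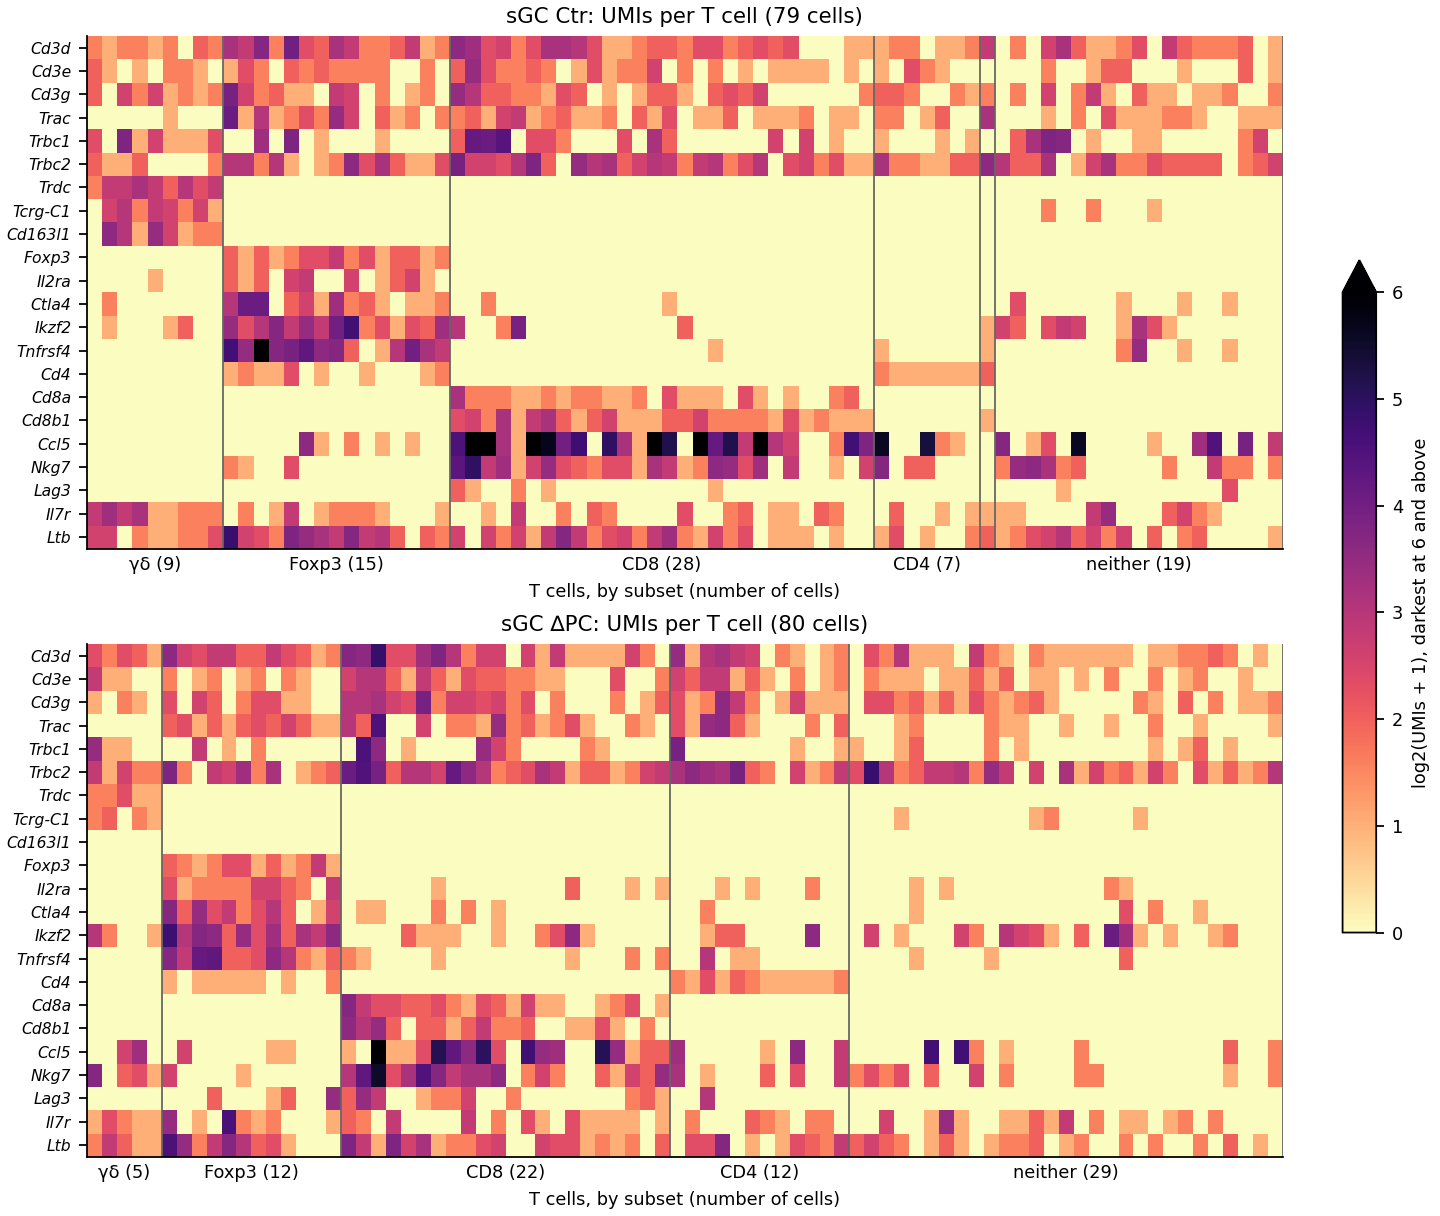
UMIs of 22 genes (rows) in each T cell (columns, grouped by subset and ordered by depth), for sGC Ctr above and sGC ∆PC below, with color giving log2(UMIs + 1). *Cd163l1* appears in 8 of 9 γδ cells of sGC Ctr and in none of sGC ∆PC. *Tnfrsf4* is concentrated in Foxp3 cells and *Ccl5* and *Nkg7* in CD8 cells. *Ikzf2* is in all Foxp3 cells, but also in other cells, with 110 of its 226 sGC ∆PC UMIs in Foxp3 cells. The unlabelled narrow column of sGC Ctr is the cell with both *Cd4* and CD8 UMIs.

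The cells with *Trdc* differed in gene content between the libraries. *Trdc* was also seen in 1 of 6 and 2 of 7 NK-type barcodes. In sGC Ctr the 9 cells held 7, 6, 6, 6, 2, 3, 8, 6 and 4 *Trdc* UMIs, and in sGC ∆PC the 5 cells held 2, 1, 1, 2 and 4. *Cd163l1*, a scavenger receptor gene known in γδ T cells, had 39 UMIs in 8 of the 9 sGC Ctr cells (1, 11, 10, 2, 5, 1, 7 and 2 UMIs) and 0 in all 80 sGC ∆PC T cells, at least 16.1-fold lower when 3 UMIs over the T cells of the library are taken as the floor. The exact interval of its log2 ratio reached up to -3.64. The sGC Ctr cell without it held 5 of the 7 UMIs of *5830411N06Rik*, a related scavenger receptor gene, which was also at 0 in sGC ∆PC. Of the 10 sGC Ctr UMIs of the delta V segment *Trdv4*, 9 were in 6 of these cells. *Trac*, the alpha constant gene, was seen in 1 of 9 and 0 of 5 γδ cells, against 53 of 70 and 46 of 75 other T cells.

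The sGC Ctr γδ cells shared further genes that the rule did not use. *Cxcr6*, a chemokine receptor of tissue T cells, was in 9 of 9 cells with 32 UMIs, and in sGC ∆PC in 1 of 5 with 1 UMI (log2 ratio -5.16, -10.50 to -2.58). *Il7r*, the receptor of the survival cytokine IL-7, had 37 UMIs in 9 of 9 cells and 9 UMIs in 5 of 5 (-2.20, -3.43 to -1.12). *Maf*, a transcription factor of IL-17-type γδ cells, had 18 UMIs in 8 of 9 and 0 in 5. *Il17a* itself was at 0 in all T cells of both libraries. In the sGC ∆PC γδ cells, *Fcer1g*, a signaling adaptor of innate and myeloid cells, had 37 UMIs in 4 of 5 cells, of which single cells held 20 and 15, against 1 UMI in the 9 sGC Ctr cells. The cell with 20 also held 12 *Nkg7*, 5 *Klrd1*, 2 *Klrb1c*, 7 *Gzmb* and 17 *Gzmc* UMIs, and the cell with 15 held 12 *Tyrobp* UMIs. Over the 5 cells *Nkg7* had 20 UMIs in 4 cells, *Klrd1* 9 in 3, *Ccl5* 14 in 2 and *Xcl1* 18 in 1, and all 4 genes were at 0 in the 9 sGC Ctr cells. Of the 5 cells, 2 held 10 or more UMIs of *Lyz2* or MHC class II genes. The part of NK and myeloid RNA in this difference was not tested. *Trbc1* or *Trbc2* UMIs occurred in all 9 and all 5 cells, counts that the choice of cells by *Trbc2* shapes.

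Over all T cells *Trdc* had 48 and 10 UMIs (165 and 27.7 CPM, log2 ratio -2.57, -3.72 to -1.57) and the gamma constant gene *Tcrg-C1* 38 and 13 (131 and 36.0 CPM, -1.86, -2.89 to -0.92). The other gamma constant genes, below 50 UMIs, did not run this way: *Tcrg-C4* had 3 UMIs in 3 cells and 17 in 10 (2.19, 0.40 to 4.60), and *Tcrg-C2* 7 and 11 (0.34, -1.16 to 1.95). Outside the cells with *Trdc*, *Tcrg-C1* had 5 UMIs in 3 sGC Ctr cells and 5 in 4 sGC ∆PC cells. There *Tcrg-C4* had 1 UMI in 1 cell and 10 in 7, and *Tcrg-C2* 4 in 3 and 7 in 5. Whether these are γδ cells whose *Trdc* was missed was not tested. Gamma V segments had no UMI in sGC Ctr and 6 in sGC ∆PC, 4 of *Tcrg-V1* in 4 cells and 2 of *Tcrg-V4* in 2 cells, and none of these cells had *Trdc*. Of the 16 genes listed for γδ cells, 3 had enough UMIs to be compared, and 2 of them, *Trdc* and *Tcrg-C1*, were at least 2-fold lower, beside 0.992% of all genes with at least 50 UMIs. The median of the 3 was -1.82. Where no C1q or cancer cell UMI was allowed, the median of the same 3 genes was -0.68, the value of *Tcrg-C1*, and *Trdc* stood at -1.86.

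Foxp3 cells had the genes known for regulatory T cells in both libraries. *Ikzf2*, which encodes the transcription factor Helios, was in 15 of 15 and 12 of 12 cells with 118 and 110 UMIs, at 1528 and 1582 CPM against 323 and 398 CPM in the other T cells. *Ctla4*, an inhibitory receptor, had 67 UMIs in 13 cells and 57 in 11, and *Il2ra*, the high-affinity chain of the IL-2 receptor, 33 in 10 and 34 in 11. The log2 ratios between libraries within these cells were 0.05 (-0.34 to 0.44), -0.08 (-0.62 to 0.45) and 0.19 (-0.54 to 0.93). *Cd4* was seen in 9 of the 15 and 8 of the 12 cells, and no Foxp3 cell held *Cd8a* or *Cd8b1*. *Icos*, a costimulatory receptor, had 53 and 58 UMIs.

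Several genes differed between the Foxp3 cells of the libraries. *Tnfrsf4*, which encodes the costimulatory receptor OX40, had 207 UMIs in 14 of 15 sGC Ctr cells and 87 in 12 of 12 sGC ∆PC cells, or a log2 ratio of -1.10 (-1.48 to -0.73), and -0.92 (-1.36 to -0.50) without the top cell of each library. *Itgae*, the integrin chain CD103 that holds T cells in epithelia, had 0 UMIs in the 15 sGC Ctr cells and 18 in 8 of the 12 sGC ∆PC cells, with 9 of them in 1 cell. Over all T cells *Itgae* had 6 UMIs in 4 cells, all γδ, and 33 in 19 cells, a log2 ratio of 2.15 (0.88 to 3.69). *Lag3*, an inhibitory receptor, had 0 UMIs in sGC Ctr Foxp3 cells and 17 in 4 sGC ∆PC ones, with 10 of them in 1 cell. *Ccl4*, a chemokine gene, had 67 UMIs in 4 cells and 5 in 2, but 49 of the 67 were in 1 cell. *Il7r* ran from 18 to 40 UMIs, with 23 of the 40 in 1 cell. Over all T cells, 9 of the 16 listed regulatory genes could be compared, 1 (*Tnfrsf4*) was at least 2-fold lower and none higher, beside 0.992% lower and 1.54% higher of all genes compared. Their median was -0.40, but 0.10 over the same genes after thinning, beside -0.07 for all genes.

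Most UMIs of *Prf1* (48 of 53 in sGC Ctr and 24 of 26 in sGC ∆PC) and of *Ccl5* (820 of 1041 and 402 of 510) were in CD8 cells. The 10 genes with the largest excess over the other T cells in both libraries were *Prf1* (perforin), *Nrgn*, *Ccl5*, *Nkg7*, *Cst7*, *Gzmb*, *Ms4a4b*, *Gm8369*, *Ly6c2* and *Plac8*, though *Nrgn* in sGC Ctr came from 1 cell. *Nkg7* was in 24 of 28 and 19 of 22 CD8 cells with 161 and 179 UMIs, a log2 ratio of -0.08 (-0.40 to 0.23). *Ms4a4b* was in 26 and 22 cells. Granzyme genes lay in few cells: *Gzmb* had 103 UMIs in 6 cells with 80 in 1 cell, and 116 in 5 cells with 55 in 1 cell. Without these top cells *Gzmb* had 23 and 61 UMIs (log2 ratio 1.21, 0.49 to 1.97). Foxp3 cells held *Gzmb* too, 54 UMIs in 7 of 15 cells and 53 in 8 of 12 (699 and 762 CPM, beside 1021 and 977 CPM in CD8 cells). *Prf1* had 48 UMIs in 10 cells with 32 in 1, and 24 in 9 with 10 in 1. *Gzma* had 44 UMIs in 5 CD8 cells with 30 in 1, against 1 UMI in sGC ∆PC.

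CD8 cells of sGC ∆PC tumors had less *Ccl5* and more *Lag3* and *Klrd1*. *Ccl5*, a chemokine that draws T cells and monocytes, had 820 UMIs in 24 of 28 sGC Ctr cells and 402 in 18 of 22 sGC ∆PC cells, or 8126 and 3385 CPM. The log2 ratio was -1.26 (-1.44 to -1.09), and -1.97 (-2.20 to -1.74) without the top cells, as 203 of the 402 were in 1 cell. *Ccl5* was also lower in CD4 cells (89 and 27 UMIs, -3.44, -4.12 to -2.81) and in cells with no subset gene (116 and 60, -1.35, -1.83 to -0.89). In γδ cells it ran the other way, with 0 and 14 UMIs. *Lag3* had 8 UMIs in 5 of 28 cells and 37 in 11 of 22 (1.97, 0.85 to 3.29, and 2.16 without the top cells). In cells with no subset gene *Lag3* ran the other way, with 5 and 0 UMIs (interval up to -0.28), and 4 of the 5 were in 1 cell. *Klrd1*, the CD94 chain of an NK receptor, had 29 UMIs in 14 cells and 69 in 16 (287 and 581 CPM, 1.02, 0.37 to 1.69), while in cells with no subset gene it had 37 and 29 UMIs (553 and 328 CPM, -0.75, -1.51 to -0.01). *Cd160*, another receptor of cytotoxic cells, had 4 UMIs in 3 cells and 21 in 8, and *Bhlhe40*, a transcription factor of activated T cells, 7 in 4 and 27 in 13. *Bst2*, an interferon-induced membrane gene, ran the other way, with 34 UMIs in 9 cells and 8 in 6 (-2.32, -3.64 to -1.18). *Pdcd1*, which encodes PD-1, had 13 UMIs in 5 cells and 27 in 12, with an interval that held 0 (0.82, -0.18 to 1.90). *Il7r* had 30 and 33 UMIs. The CD8 cells of sGC ∆PC were deeper (median 5187 against 3148 UMIs), and the count of cells with a UMI moves with depth, while CPM are relative to it.

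**Figure D3:**
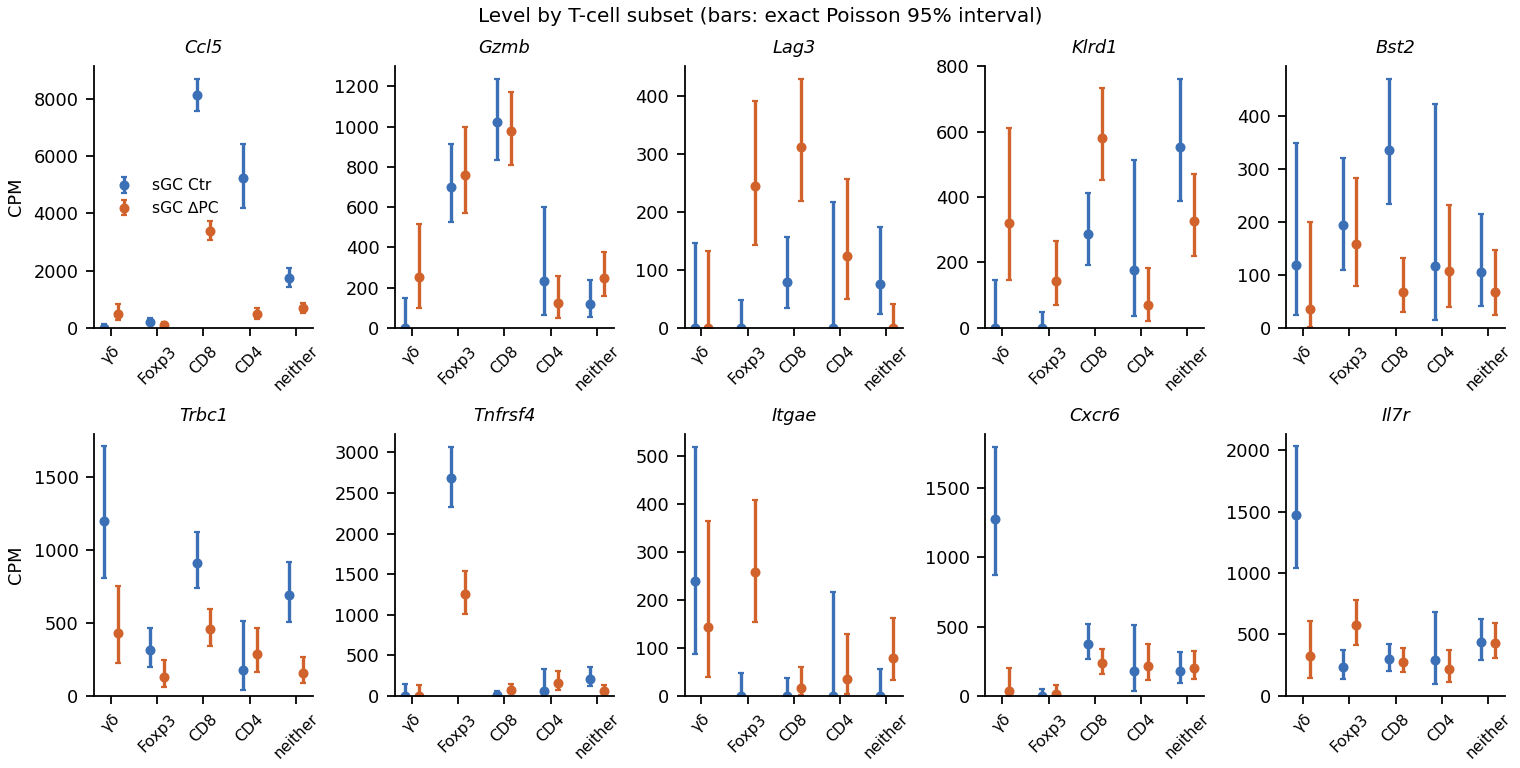
Level of 10 genes in CPM (vertical axes, each with its own scale) by T-cell subset, for sGC Ctr (blue) and sGC ∆PC (orange), with exact Poisson 95% intervals of the summed UMIs. *Ccl5* is lower and *Lag3* and *Klrd1* higher in sGC ∆PC CD8 cells, *Tnfrsf4* is lower and *Itgae* higher in Foxp3 cells, and *Cxcr6* and *Il7r* are highest in sGC Ctr γδ cells.

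CD4 cells without *Foxp3* were few, 7 and 12, with 17045 and 56281 UMIs, and *Cd4* itself gave only 8 and 20 of them. *Cd40lg*, the helper signal to B cells, had 0 and 4 UMIs over all T cells, and *Zbtb7b*, the regulator of the CD4 lineage, 5 and 11. Among cells with no subset gene, 18 of 19 and 28 of 29 held a UMI of *Trbc1* or *Trbc2*, 12 and 10 of *Trac*, and 6 and 6 of an NK gene (*Ncr1*, *Klrb1c* or *Klre1*). *Trac* and *Trbc2* are genes of the rule, so the choice of cells shapes the counts of receptor genes, which do not bear on the label. Of those with an NK gene, 3 of 6 and 6 of 6 had no *Trac* UMI. *Tyrobp* and *Fcer1g* together had 2 or more UMIs in 6 and 12 of these cells. Their median depth was 2888 and 2939 UMIs against 3109 and 4653 in the other T cells, and the data do not name their subset.

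Over all T cells, 1814 genes had at least 50 UMIs in the libraries together. Their median log2 ratio was -0.07, with quartiles of -0.27 and 0.18. In sGC ∆PC T cells 28 genes (1.54%) were at least 2-fold higher and 18 (0.992%) at least 2-fold lower, 2.54% in all. These shares are the background for all counts of list members. A single cell held at least 25% of a gene's UMIs, in the library where it was higher, for 9 of the 28 and 7 of the 18.

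Of the inhibitory receptor and exhaustion genes, *Lag3* and *Bhlhe40* were among the higher ones. Of 14 listed, 4 could be compared, and 2 were at least 2-fold higher, with a median of 0.82. Over the same 4 genes this median was 0.21 with no limit on C1q and cancer cell UMIs. Where none was allowed it was 1.06, with *Lag3* at 1.84 and *Bhlhe40* at 2.22. *Lag3* had 13 UMIs in 7 cells and 61 in 16 (44.7 and 169 CPM, log2 ratio 1.92, 1.04 to 2.91), and in cells thinned to 1000 UMIs it was seen in 2.53% and 11.3% of T cells, against at most 0.463% of granulocyte and macrophage barcodes. *Bhlhe40* had 22 UMIs in 14 cells and 64 in 33 (1.23, 0.51 to 2.00, but 0.09 with no limit on C1q and cancer cell UMIs). *Pdcd1* had 23 and 39 (0.45, -0.33 to 1.26), and *Ctla4* 79 and 74 (-0.41, -0.88 to 0.07). Below 50 UMIs, *Havcr2*, which encodes TIM-3, had 8 and 24, *Cd160* 14 and 34 and *Nr4a2*, an activation-induced nuclear receptor, 10 and 34. *Entpd1* (13 and 11, -0.55, -1.85 to 0.72) and *Nr4a3* (14 and 16, -0.12, -1.25 to 1.03) in this list did not run this way. *Tox*, the main regulator of exhaustion, had 16 and 22 and *Tigit* 1 and 2.

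Cytotoxic effector genes lay on both sides of 0. Of 13 listed, 10 could be compared, 3 (*Gzma*, *Prf1* and *Gzmc*) were at least 2-fold lower and none higher, and the median was -0.11, or 0.21 without the top cell of each gene. *Gzma* had 57 UMIs in 9 cells and 2 in 2 (-5.14, -8.22 to -3.22), with 30 of the 57 in 1 cell. *Prf1* had 53 in 14 cells and 26 in 11 (-1.34), and -0.70 (-1.74 to 0.30) without the top cells. *Gzmc*, a granzyme of activated killer cells, had 47 UMIs of which 46 were in 1 cell, and 27 in 7 cells with 17 in 1, so its direction turned without the top cells. *Gzmb* had 169 and 205 UMIs (-0.03, -0.33 to 0.27), and 89 and 150 without the top cells (0.44, 0.05 to 0.84). *Srgn*, which encodes the proteoglycan that packs granules, had 258 and 327 (0.03, -0.21 to 0.27), and *Ctsw*, a protease of killer cells, 53 and 94 (0.52, 0.01 to 1.03). *Gzmk*, below 50 UMIs, had 15 and 3.

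Chemokine and cytokine genes were led by *Ccl5*. It had 1041 UMIs in 42 cells and 510 in 34 (3577 and 1412 CPM, -1.34, -1.50 to -1.19, and -0.90 at a mitochondrial limit of 5%), more UMIs than any gene of the rule. *Ccl4* had 102 and 54 (-1.23, -1.73 to -0.74, but 1.13 where no C1q or cancer cell UMI was allowed, and -0.91 without the top cells). In CD8 cells *Ccl4* ran the other way, with 21 and 46 UMIs (0.90, 0.12 to 1.72). *Ltb*, a signal for lymphoid tissue, had 272 and 238 (-0.50, -0.76 to -0.25), and *Xcl1*, which draws cross-presenting dendritic cells, 25 in 4 cells and 56 in 13 (0.85, 0.15 to 1.59). Of 19 genes in this list 4 could be compared and 2 were at least 2-fold lower. *Ifng* had 11 and 19 UMIs and *Tnf* 7 and 16, while *Il4*, *Il5*, *Il13*, *Il17a*, *Il21* and *Il22* were at 0 in both libraries, below the limit of 10.3 and 8.31 CPM that a count of 0 allows.

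**Figure D4:**
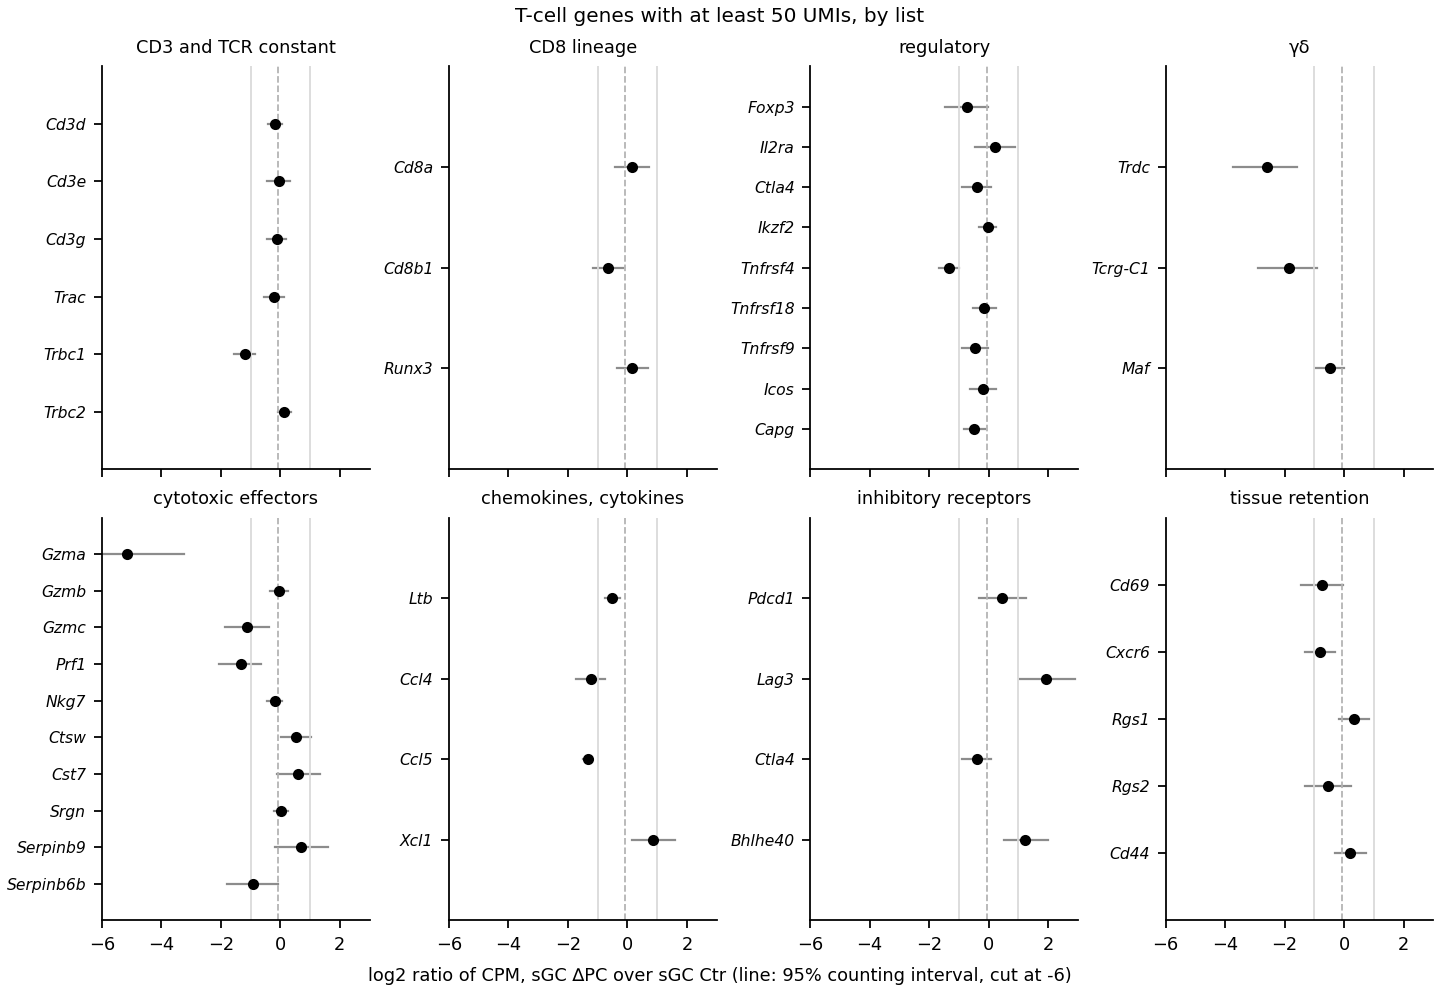
Log2 ratio of CPM in T cells, sGC ∆PC over sGC Ctr (horizontal axis), for the genes with at least 50 UMIs in 8 of the lists, with 95% counting intervals as lines. The dashed line is the median of all 1814 genes (-0.07) and the light lines mark 2-fold. *Lag3* and *Bhlhe40* lie above 2-fold, and *Trbc1*, *Tnfrsf4*, *Trdc*, *Tcrg-C1*, *Gzma*, *Gzmc*, *Prf1*, *Ccl4* and *Ccl5* below it.

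Few genes of the remaining T-cell lists passed 2-fold. None of 12 genes of proximal receptor signaling passed 2-fold either way (median 0.08), nor did any of 3 CD8 lineage (0.15), 6 naive and central memory (-0.19), 5 tissue retention (-0.54), 4 chemokine receptor (-0.06), 5 T helper regulator (-0.12), 8 cytokine receptor (-0.03), 9 proliferation (0.09) or 11 glycolysis and hypoxia genes (0.05). The tissue retention median lay below the lower quartile of all genes, -0.27, but the sum over all 9 listed genes had a log2 ratio of -0.07 (-0.30 to 0.15), and *Itgae*, below 50 UMIs, stood at 2.15. *Cxcr6* in this list had 85 and 60 UMIs (-0.81, -1.32 to -0.32). *Cd28*, the main costimulatory receptor, had 30 and 73 (0.97, 0.34 to 1.64), and *Cd8b1* 80 and 63 (-0.66, -1.16 to -0.16) while *Cd8a* had 45 and 62 (0.15, -0.43 to 0.74). Of 11 interferon response genes 1 passed, *Bst2* with 61 and 32 UMIs (-1.24, -1.91 to -0.60, but -0.07 with no limit on C1q and cancer cell UMIs), and the median was -0.22. Of 17 immediate early and heat shock genes 1 passed, *Hspa1b* with 37 and 17. It is nearly identical to *Hspa1a* (23 and 33), so that the split between them is uncertain. Of the 37 *Hspa1b* UMIs of sGC Ctr 17 were in 1 cell, and without the top cells the log2 ratio was -0.83 (-1.92 to 0.23). Of 6 costimulatory genes *Tnfrsf4* alone passed (median -0.17).

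*Mki67* and *Top2a*, genes of dividing cells, were both seen in 4 sGC Ctr and 8 sGC ∆PC T cells, and at least 1 of them in 27 and 38. By subset, at least 1 of them was seen in 8 of 15 and 7 of 12 Foxp3 cells, 8 of 28 and 11 of 22 CD8 cells and 3 of 9 and 0 of 5 γδ cells. *Mki67* had 23 UMIs in 10 cells and 40 in 21 (0.49, -0.29 to 1.29), with 12 and 16 of them in 1 cell. After thinning to 1000 UMIs *Mki67* was seen in 6.33% (2.09 to 14.2) and 8.75% (3.59 to 17.2) of T cells, 2.85% and 4.17% of granulocyte barcodes and 6.50% and 5.01% of macrophage barcodes. The intervals of T cells held the macrophage shares, so these counts are not read as shares of cycling cells.

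The genes with the largest log2 ratios were mostly not T-cell genes and often came from single cells. The MHC class II genes *H2-Aa*, *H2-Eb1* and *H2-Ab1*, which present antigen in dendritic cells and macrophages, had 4, 5 and 7 UMIs in sGC Ctr and 93, 110 and 74 in sGC ∆PC, with 54, 63 and 39 of these in 1 cell. *Ifitm1* had 27 and 250 with 168 in 1 cell, *Cxcl2*, a chemokine of myeloid cells, 20 and 154 with 84 in 1 cell, *Thbs1* 14 and 88 with 40 in 1 cell, *Cst3* 64 and 303 with 165 in 1 cell and *Cd74* 49 and 195 with 84 in 1 cell. *Lum*, a gene of fibroblasts, differed from these: its 12 and 49 UMIs lay in 12 and 37 cells, with at most 1 and 4 per cell, and it stood at 201 and 245 CPM in the other barcodes. Only *Lag3* among the 10 highest genes was from the T-cell lists. The 10 lowest were *Gzma*, *Trdc*, *Tcrg-C1*, *Ifi209* (39 and 15 UMIs), *Gadd45b* (76 and 35), *Hspa1b*, *Ccl5*, *Tnfrsf4*, *Prf1* and *Mrps21* (41 and 21).

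**Figure D5:**
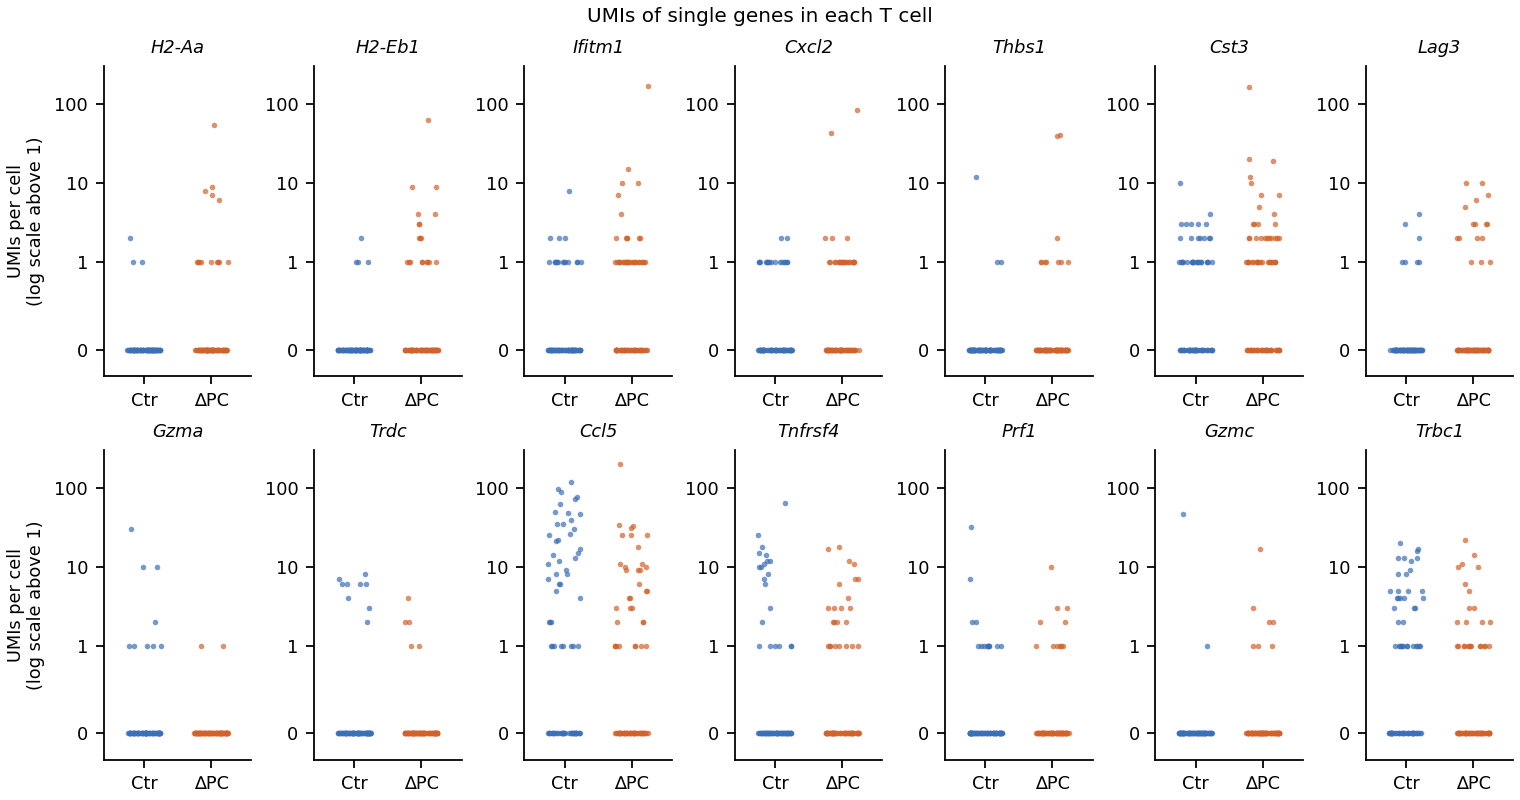
UMIs of 14 genes in each T cell (1 point per cell, vertical axis linear up to 1 and logarithmic above), for sGC Ctr (blue, left) and sGC ∆PC (orange, right). *H2-Aa*, *Ifitm1*, *Cxcl2*, *Cst3*, *Gzmc* and *Prf1* have single cells far above the rest, as does *Ccl5* in sGC ∆PC, with 203 of its 510 UMIs in 1 cell.

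Markers of other cell types were summed over the same T cells. Of 12 dendritic cell markers 4 could be compared and all 4 were at least 2-fold higher, their summed level was 251 and 1401 CPM (73 and 506 UMIs, 254 of them in 1 cell), *Cd74* was the most abundant in both, and *Clec9a* and *Cd209a* were at 0. The 12 macrophage markers summed to 938 and 1401 CPM (log2 ratio 0.58, 0.36 to 0.80), led by *Lyz2* with 147 and 296 UMIs, and none was at 0. The 10 granulocyte markers summed to 120 and 191 CPM, led by *S100a9* in sGC Ctr and *Il1r2* in sGC ∆PC, with *Csf3r* at 0 in both. *Il1r2*, a decoy receptor of interleukin-1, had 3 and 32 UMIs (10.3 and 88.6 CPM, beside 10.2 and 12.8 CPM in the other barcodes), and the other 9 markers summed to 110 and 102 CPM. The 8 fibroblast markers summed to 539 and 692 CPM, led by *Col3a1* with 111 and 137 UMIs. The 16 NK markers, many of which cytotoxic T cells share, summed to 1433 and 1529 CPM, with *Klra4* and *Klra8* at 0. In 1 sGC Ctr and 7 sGC ∆PC T cells *Lyz2* or the 3 MHC class II genes had 10 or more UMIs, none of them CD8 cells. Without these cells 15 genes were at least 2-fold higher and 17 lower (11 and 15 of them as before), and *Lag3* stood at 1.99, *Ccl5* at -1.22, *Tnfrsf4* at -1.30, *Trbc1* at -1.10 and *Trdc* at -2.89. *Gm42418*, a gene that overlaps ribosomal RNA, took 2.86% of the UMIs of sGC Ctr T cells and 5.61% of sGC ∆PC T cells, and the median mitochondrial share was 4.10% and 5.06%.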

How the data were processed

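Single-cell 3′ RNA-seq was made by the authors from 2 pools of 3 LLC tumors, 1 library per condition. Per the labels and the study's methods, reads were counted with Cell Ranger 6.1.1 on mm10, and the deposited matrices hold whole UMI counts per gene and barcode, with no normalization. Rows sharing a symbol (38 symbols) were summed. UMIs of the T cells were summed per library and given as CPM, log2 ratios carry exact conditional intervals, shares Clopper-Pearson intervals, and 2-fold was called on genes with at least 50 UMIs with 0.5 counts added. Cells are not replicates, so no test between conditions was run. Thinning drew 1000 UMIs per cell at random. No doublet caller was run; the limits on C1q and cancer cell UMIs and the values without cells rich in *Lyz2* or MHC class II UMIs stand in its place. Ratios and intervals were tested on simulated data, drawn as independent Poisson counts per gene, the error that the intervals assume. Clumping of UMIs in single cells was not simulated, so this test does not speak to it. The members, subsets and gene lists were chosen with earlier results of these data known. The text names list members with at least 50 UMIs, the 10 genes with the largest ratio each way, the 10 with the largest excess in T cells and in CD8 cells, and subset genes; other genes, those under 50 UMIs and those named within subsets among them, were chosen after their values were seen. Some genes that these rules name are not reported here. The alternatives were other limits on UMIs, mitochondrial share and CD3, C1q and cancer cell UMIs, thinning, other gene filters and scalings, and leaving out cells; those that leave out cells, or *Gm42418* and mitochondrial genes from the totals, or that keep the genes of a list's median fixed, were chosen after seeing the data. Python 3.11.15, numpy 2.4.6, scipy 1.17.1, pandas 2.3.3 and matplotlib 3.10.9 were used.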

Additional observations from a re-analysis of the deposited data

Results flagged for a closer look

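Barcodes with 3 or more CD3 UMIs that were left out for C1q or cancer cell UMIs lay outside the comparisons of T-cell genes, other than under the alternative with no limit on these UMIs: there were 37 of them in sGC Ctr and 87 in sGC ∆PC, with median depths of 18983 and 16637 UMIs against 3016 and 3549 in the T cells. For macrophage RNA 16 and 47 were left out and for cancer cell RNA 31 and 80, with 10 and 40 over both limits. With these barcodes left out the log2 ratio of the T-cell share was -0.76, and with them it was -0.25. What they are was not tested.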

How the results depend on the processing

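No paired analysis was possible because each condition was 1 library with no replicate, and for the same reason no replicate could be left out. The log2 ratio of the T-cell share, -0.76, was -1.50 when no C1q or cancer cell UMI was allowed (23 and 14 cells) and -0.25 with no limit on them. Thinning gave 1.25% γδ cells in sGC ∆PC, 10.1% and 7.50% Foxp3 cells, 24.1% CD8 cells in sGC Ctr and 3.75% CD4 cells in sGC ∆PC. The γδ share of sGC Ctr was 4.35% with no C1q or cancer cell UMI, and the CD4 share of sGC ∆PC 7.78% with no limit on them. The count of genes at least 2-fold higher (28) was 2 with no C1q or cancer cell UMI, 66 with no limit, 15 without cells of 10 *Lyz2* or MHC class II UMIs, 176 at 20 UMIs per gene, 11 at 100, 18 with 5 counts added and 6 after thinning. The count lower (18) was 47 with 2 CD3 UMIs, 8 with no C1q or cancer cell UMI, 104 with no limit, 125 at 20 UMIs per gene, 5 at 100 and 5 after thinning. List medians were taken over the genes that reached 50 UMIs under each setting, so the genes counted changed. The regulatory median (-0.40 over 9 genes) was -0.58 with no limit (11 genes; -0.59 over the same 9) and 0.25 after thinning (4 genes; 0.10 over the same 9). The cytotoxic median (-0.11 over 10 genes) was 0.11 at a mitochondrial limit of 5% (7 genes, or -0.03 over the same 10). It was -0.44 with no C1q or cancer cell UMI (3 genes, or -0.42 over the same 10) and -0.26 with no limit. It was 0.21 without the top cell of each gene and -0.32 without *Trdc* cells (9 genes, or -0.21 over the same 10). The inhibitory receptor median (0.82 over 4 genes) was 0.40 at the 5% limit (2 genes; 0.90 over the same 4), -0.32 with no C1q or cancer cell UMI (*Ctla4* alone; 1.06 over the same 4) and 0.21 with no limit. With no C1q or cancer cell UMI the γδ median was 0.30 (*Maf* alone; -0.68 over the same 3 genes), *Ccl4* was 1.13, *Cxcl2* -0.19 and *Gzmc* 2.04, and *Gzmc* was 2.50 without its top cells. The cause of these moves was not tested, beyond the fewer cells or genes that a setting leaves. Of 137 named genes 25 were past 2-fold with an interval off 0, and over 14 alternatives 3 of these genes, *Ccl4*, *Cxcl2* and *Gzmc*, turned. *Lag3*, *Tnfrsf4* and *Gzma* stayed past 2-fold under all 14, as did *Trdc* except where *Trdc* cells were left out, while *Ccl5* (-0.90 at a mitochondrial limit of 5%), *Trbc1* (-0.71 there, -0.98 with 2 CD3 UMIs) and *Bhlhe40* (2.22 with no C1q or cancer cell UMI, but 0.95 without *Trdc* cells and 0.09 with no limit on C1q and cancer cell UMIs) did not. *Ccl4* (-0.88 after thinning, -0.90 without the top cells), *Bst2* (-0.70 with no C1q or cancer cell UMI, -0.07 with no limit) and *Tcrg-C1* (-0.68 with no C1q or cancer cell UMI, -0.32 without *Trdc* cells) also fell short of 2-fold.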
